A study of Mus musculus with 8 samples.

Results

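The mouse genes of MHC class I antigen presentation described here, in 8 RNA-seq libraries of embryonic fibroblasts, are B2m, H2-K1, H2-D1, Tap1, Tap2, Tapbp, Psmb8, Psmb9, Psmb10 and Nlrc5. These 10 genes were taken by gene symbol, as a named pathway, and all 10 were found among the 24460 genes listed for each library. All 10 also passed the filter on low counts that left 14296 genes for testing. The cells were wild type mouse embryonic fibroblasts (MEFs), a connective tissue cell grown from embryos, and they were cultured without RHPS4 (0 µM, n = 3 libraries), with 2 µM RHPS4 (n = 3) or with 10 µM RHPS4 (n = 2). RHPS4 is a small molecule that binds G-quadruplexes, the stacked structures that guanine-rich DNA or RNA can fold into. The libraries were made from total RNA after removal of nuclear ribosomal RNA. Strain, number of embryos and the hours of exposure of these particular cultures are not given in the sources used here, and nothing says whether libraries of a dose came from separate cultures, so the p-values measure only the spread between these libraries, which may be technical.

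MHC class I molecules show short peptides from inside the cell to cytotoxic T cells. Proteasomes cut proteins into peptides, the TAP transporter carries the peptides into the endoplasmic reticulum, and a loading complex fits them into a groove of the class I heavy chain, which is held together by beta-2-microglobulin. Fibroblasts run this pathway at a basal level, and interferons are known to raise nearly all of its parts.

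The libraries held 10455965 to 26688121 assigned fragments. Levels are normalised read counts (CPM, the share of a library's assigned fragments scaled to a fixed total, with edgeR's TMM factors), with means ± SD. A gene is said to have risen or fallen where it changed by more than 1.5-fold and edgeR's quasi-likelihood test gave a Benjamini-Hochberg adjusted p under 0.01 over all tested genes, the limits that the study set. The 0 µM replicate 1 stood most apart from its group, with a chi-square per degree of freedom of 15.4 and 20.2 against the other 0 µM libraries, which differed from each other by 3.23. The share of counts on mitochondrial DNA features fell along the doses, from 13.2 to 14.4% at 0 µM to 7.40 to 8.26% at 2 µM and 5.33 to 6.32% at 10 µM. All 11 fibroblast markers had counts in every library and summed to 14089 to 14536 CPM at 0 µM, 12846 to 13059 CPM at 2 µM and 12490 to 12808 CPM at 10 µM. The 10 leukocyte markers summed to 24.8 to 27.0, 19.6 to 22.6 and 17.2 to 19.8 CPM in the same order, with Lyz2 at 1 to 3 counts and Tyrobp at 0 to 3 counts in a library. Cd14, whose fall is given below, was the largest part of the leukocyte sum at each dose. The 5 endothelial markers summed to 3.45 to 5.40, 3.70 to 5.30 and 5.19 to 6.19 CPM, and the 5 epithelial markers to 2.80 to 3.29, 3.39 to 4.32 and 4.17 to 4.33 CPM. In the epithelial sum, all libraries of both RHPS4 doses lay above all untreated ones. These are bulk samples, in which more cells of a type and more RNA per cell cannot be told apart.

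At 10 µM RHPS4, Tap1 rose against untreated cells, and Tap1, Tap2 and Nlrc5 were higher than at 2 µM, while the classical heavy chains H2-K1 and H2-D1, B2m and Tapbp did not pass the test between any doses. Of the 10 genes, 1 rose at 10 µM against 0 µM and none fell, where 1.95% of all tested genes rose and 1.14% fell (3.09% in either direction). Against 2 µM, 3 of the 10 were higher at 10 µM and none lower, where 3.92% of all tested genes were higher and 1.59% lower (5.51% in either direction). None of the 10 passed the test at 2 µM against 0 µM, where 0.497% of all tested genes did (0.119% higher and 0.378% lower). At an adjusted p under 0.05 with the same fold, edgeR placed 2 of the 10 genes higher at 10 against 0 µM (3.18% of all tested genes), 4 higher at 10 against 2 µM (6.25%) and 0 higher at 2 against 0 µM (0.161%), Psmb8 being the added gene at 10 µM. At 2 against 0 µM, 2 of the 10 (Nlrc5 and Tap2) had an unadjusted edgeR p under 0.05, and DESeq2 called 0. DESeq2 called 1 of the 10 at 10 against 0 µM and 3 at 10 against 2 µM. Shares of all tested genes at an unadjusted p under 0.05 were not taken, here and below, so such counts are no measure of an excess. The 2 treated doses share the same 0 µM libraries, so their comparisons with 0 µM are not independent.

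**Figure D1:**
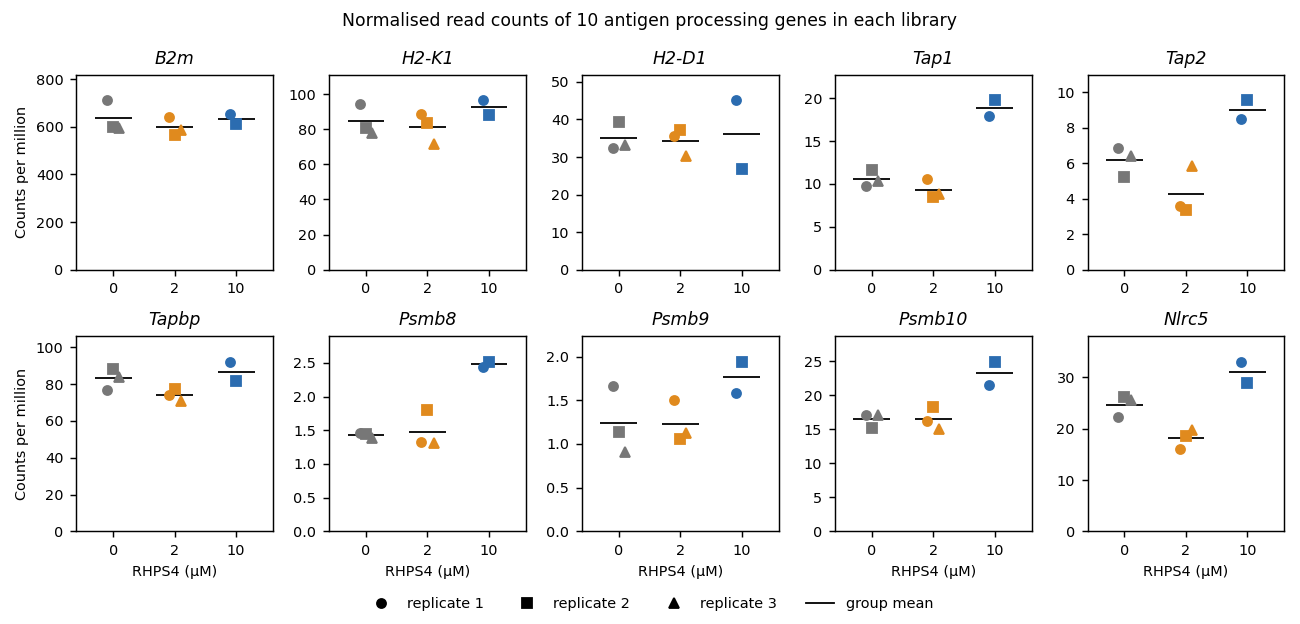
Normalised read counts in CPM (vertical axes, linear and starting at 0) of the 10 genes at each RHPS4 dose in µM (horizontal axes), with a point for each library shaped by replicate number and a line at the group mean. Tap1, Tap2, Psmb8, Psmb10 and Nlrc5 have both 10 µM libraries above all 0 µM libraries, and the 10 µM libraries of H2-D1 lie on either side of the 0 µM group.

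The median log2 fold change of the 10 genes was -0.07 at 2 µM against 0 µM, where that of all tested genes was -0.01. It was 0.41 at 10 µM against 0 µM and 0.51 at 10 µM against 2 µM, beside medians of 0.02 and 0.03 over all tested genes. The libraries of 10 µM lay above all those of 0 µM for 5 of the 10 genes, as for 22.9% of all tested genes, and none lay below (20.0%). The libraries of 10 µM lay above all those of 2 µM for 7 of the 10 genes, against 27.0% of all tested genes, and none lay below (24.9%). At 2 µM, Nlrc5 alone of the 10 had all its libraries below those of 0 µM, as 12.9% of all tested genes did, and none had them all above (12.7%).

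Beta-2-microglobulin, the light chain shared by all class I molecules, was by far the most abundant of the 10. B2m (chromosome 2, GRCm38, chr2:122147686-122153083, plus strand) was at 712, 599 and 595 CPM in the 0 µM libraries, at 639, 566 and 589 CPM in those of 2 µM, and at 654 and 611 CPM in those of 10 µM. The groups overlapped, and the highest library was an untreated one. The log2 fold change was -0.09 ± 0.0875 (SE; adjusted p = 0.608) at 2 µM and -0.01 ± 0.0978 (adjusted p = 0.975) at 10 µM against 0 µM. The 95% confidence interval of the 10 µM fold ran from 0.858 to 1.16, so a change of the size that counts as a rise here is outside it.

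H2-K1 encodes a classical heavy chain, the part that forms the peptide groove. H2-K1 (chr17:33996017-34000347, minus strand) was at 94.6, 80.8 and 77.8 CPM without RHPS4, 88.4, 83.7 and 71.4 CPM at 2 µM, and 96.6 and 88.2 CPM at 10 µM. The doses overlapped. Its log2 fold change was 0.14 ± 0.110 at 10 µM against 0 µM (adjusted p = 0.444; fold 1.10, 95% interval 0.930 to 1.30) and 0.19 ± 0.110 against 2 µM (adjusted p = 0.241).

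H2-D1 encodes another classical heavy chain, in a gene at the far side of the same gene complex. H2-D1 (chr17:35262730-35267499, plus strand) was at 32.3, 39.4 and 33.3 CPM, then 35.6, 37.3 and 30.3 CPM at 2 µM, and 45.2 and 26.9 CPM at 10 µM. The 10 µM libraries were the highest and the lowest of all 8. The mean at 10 µM was 36.0 ± 12.9 CPM against 35.0 ± 3.88 CPM at 0 µM, with a log2 fold change of 0.04 ± 0.182 (adjusted p = 0.904) and a 95% interval of the fold from 0.781 to 1.36. The sign turned with the 10 µM library that was left out: 0.34 without replicate 2 and -0.42 without replicate 1. Class I heavy chains resemble each other. Of the 75-base stretches, 3.10% of those of H2-K1 transcripts and 5.56% of those of H2-D1 also occur in transcripts of other genes, among them H2-Q10 and H2-Q1. A single read of 75 bases there cannot be placed by its own sequence, though the other read of its pair may place the fragment.

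The promoters of B2m and of the classical heavy chains are shown because they carry motifs for factor families whose mRNAs were also measured. The RefSeq sequence on GRCm38.p6 is printed 5′ to 3′ on the strand of the gene, from 160 bases before the start. Capitals mark matches on either strand to GAAA and GAAA with 2 free bases between (ISRE type), to GAANNGAAA (IRF type), to the NF-kB consensus and to TGACG (CRE type) and CCAAT (NF-Y type). The first stretch is chr2:122147527-122147685 and the second, on the minus strand, chr17:34000348-34000507.
B2m: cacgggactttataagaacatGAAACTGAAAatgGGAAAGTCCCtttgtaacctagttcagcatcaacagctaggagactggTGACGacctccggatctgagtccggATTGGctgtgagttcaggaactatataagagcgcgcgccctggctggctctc
H2-K1: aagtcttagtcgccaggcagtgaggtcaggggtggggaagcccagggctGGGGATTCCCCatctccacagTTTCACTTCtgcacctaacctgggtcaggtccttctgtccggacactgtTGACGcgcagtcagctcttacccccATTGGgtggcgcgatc
Of the 10 genes, 8 matched a promoter window of 250 bases before to 50 bases after the start in RefSeq. Tap2 and Nlrc5 had no window, so their promoters were not searched. The ISRE-type letters stood in the window of B2m, as in 3.44% of all 32851 windows, and the IRF-type letters in those of H2-K1 and H2-D1, as in 7.52%. The NF-kB consensus was in these 3 windows (8.46% of all windows). TGACG was in 5 of the 8 (B2m, H2-K1, H2-D1, Tap1 and Psmb9; 20.8% of all windows) and CCAAT in 6 of the 8, those 5 and Tapbp (37.4%). TTCNNNGAA, the STAT-type letters, were in the window of Psmb8 alone of the 8 (8.30% of all windows). A match is a string of letters and not a measured binding site, and the ISRE-type and IRF-type letters resemble each other. None of the 3 genes with the ISRE, IRF or NF-kB letters passed the test between any doses. Tap2 and Nlrc5, which were higher at 10 than at 2 µM, are outside this count for want of a window.

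**Figure D2:**
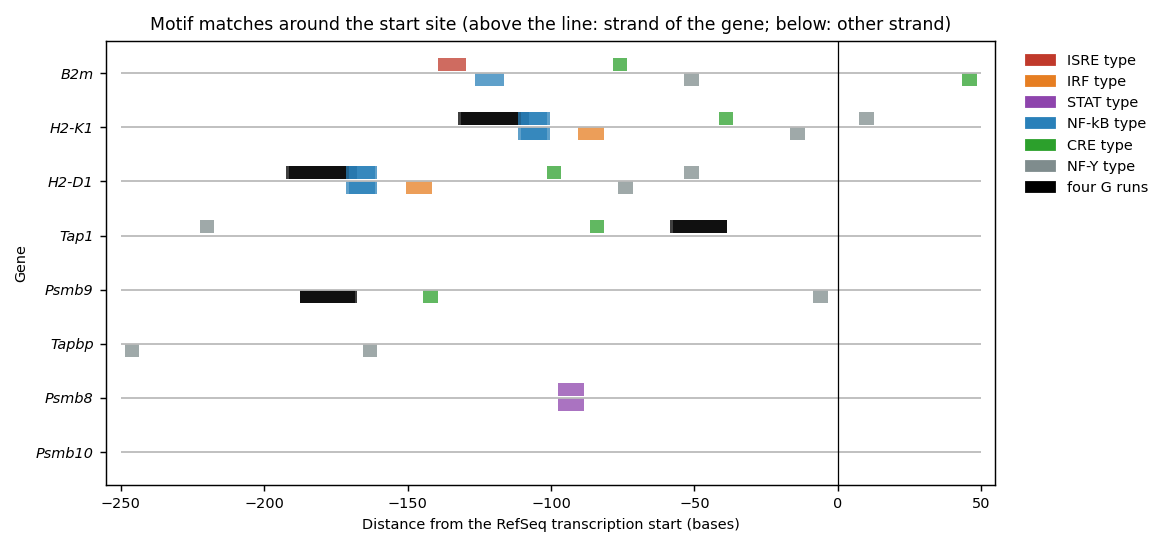
Positions of motif matches in the promoter windows of the 8 genes with a RefSeq window, as distance from the transcription start in bases (horizontal axis, 250 bases before to 50 bases after), 1 line for each gene. Bars above a line are on the strand of the gene and bars below it on the other strand; H2-K1, H2-D1, Tap1 and Psmb9 carry a stretch with 4 runs of G, and Psmb10 carries none of the motifs.

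Tap1 encodes a subunit of the transporter that moves peptides into the endoplasmic reticulum. Tap1 (chr17:34187553-34197225, plus strand) was at 9.76, 11.6 and 10.4 CPM at 0 µM, 10.6, 8.48 and 8.86 CPM at 2 µM, and 17.9 and 19.8 CPM at 10 µM. The 0 and 2 µM libraries overlapped, and both 10 µM libraries lay above all 6 others. Against 0 µM, Tap1 rose 1.76-fold at 10 µM (95% interval 1.46 to 2.12; log2 fold change 0.82 ± 0.122, edgeR adjusted p = 0.00158). Against 2 µM it was 2.03-fold higher (1.67 to 2.46; adjusted p = 0.00035), and at 2 µM against 0 µM the log2 fold change was -0.21 ± 0.120 (adjusted p = 0.350). Without the 0 µM library that stood apart, the log2 fold change at 10 µM was 0.75 (adjusted p = 0.00226). With TMM factors taken over nuclear genes only it was 0.82 (adjusted p = 0.00184), as large as with the mitochondrial features in. The call was lost without 10 µM replicate 2, which left a log2 fold change of 0.72 with an adjusted p of 0.0263.

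The RefSeq start sites of Tap1 and Psmb9 lie 226 bases apart on opposite strands, so that the bases between lie upstream of both, whereas the gene bounds printed with each gene, from GENCODE, reach farther and overlap. Guanine runs are shown because RHPS4 binds G-quadruplexes: a stretch counts as a G-quadruplex motif here where it holds 4 runs of at least 3 G with 1 to 7 bases between runs, and capitals mark the runs. The stretches, all before the RefSeq start and on GRCm38.p6, are chr17:34187498-34187517 for Tap1, chr17:34000455-34000479 (minus strand) for H2-K1 and chr17:35262902-35262926 for H2-D1. The H2-D1 stretch lies inside the GENCODE bounds of that gene, which begin at chr17:35262730.
Tap1, -58 to -39 from the start: GGGGtGGGGcctGGGatGGG
H2-K1, -132 to -108 from the start: GGGGtGGGGaagcccaGGGctGGGG
H2-D1, -192 to -168 from the start: GGGGtGGGGaagcccaGGGctGGGG
The stretches of H2-K1 and H2-D1 are identical. The 250 bases before the RefSeq starts of these genes align with 170 identical, 20 mismatched and 120 gap positions. Identity is 89.5% of aligned bases, with the gaps left out. A motif of this kind stood in 4 of the 8 windows, Tap1 and Psmb9 sharing the same letters, and in 18.6% of all windows. Of these 4 genes, Tap1 rose at 10 µM, and H2-K1, H2-D1 and Psmb9 did not pass the test. Tap2 and Nlrc5 had no window to search.

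Tap2 encodes the partner subunit of the transporter. Tap2 (chr17:34203527-34216321, plus strand) was at 6.85, 5.20 and 6.43 CPM without RHPS4, 3.61, 3.34 and 5.83 CPM at 2 µM, and 8.49 and 9.57 CPM at 10 µM. Both 10 µM libraries lay above all others, and the 2 µM group spread most, with a mean of 4.26 ± 1.36 CPM. Tap2 was 2.05-fold higher at 10 than at 2 µM (95% interval 1.48 to 2.85; log2 fold change 1.04 ± 0.215, adjusted p = 0.00597). Against 0 µM the log2 fold change was 0.56 ± 0.201 at 10 µM (adjusted p = 0.0870) and -0.47 ± 0.203 at 2 µM (adjusted p = 0.210). The call against 2 µM was lost without either of the 10 µM libraries and without 2 µM replicate 1 or 2, with adjusted p from 0.0218 to 0.0522. Some transcripts of Gm20496 and Gm15821, on the opposite strand, share 8.27% of the 75-base stretches of Tap2, and whether the counting used the strand is not given, so it is not known whether reads of these genes were kept apart from those of Tap2 there.

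Tapbp encodes tapasin, which bridges the transporter and the heavy chain during loading. Tapbp (chr17:33915899-33929292, plus strand) was at 77.0, 88.4 and 83.8 CPM at 0 µM, 74.2, 77.6 and 70.9 CPM at 2 µM, and 92.3 and 81.4 CPM at 10 µM. The 10 µM libraries lay within or just above the untreated range and above all 2 µM libraries. The log2 fold change was 0.06 ± 0.0881 against 0 µM (adjusted p = 0.683; fold 1.04, 95% interval 0.913 to 1.19) and 0.23 ± 0.0884 against 2 µM (adjusted p = 0.0855). Tapbp shares 18.6% of its 75-base stretches with overlapping or similar genes, among them Zbtb22.

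Immunoproteasome subunits take the places of constitutive catalytic subunits and favour peptides that fit class I molecules. Psmb10 (chr8:105935735-105938444, minus strand) was the most abundant of them, at 17.1, 15.2 and 17.1 CPM, then 16.2, 18.3 and 15.1 CPM at 2 µM, and 21.5 and 25.0 CPM at 10 µM. Both 10 µM libraries lay above all 6 others. Its log2 fold change at 10 µM was 0.50 ± 0.115 against 0 µM (adjusted p = 0.0161; fold 1.41, 95% interval 1.18 to 1.68) and 0.49 ± 0.116 against 2 µM (adjusted p = 0.0118), which missed both parts of the threshold. At 2 µM against 0 µM it was 0.01 ± 0.107 (adjusted p = 0.985).

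Psmb8 and Psmb9, the other immunoproteasome subunits, lie beside Tap1 and had few counts. Psmb8 (chr17:34197721-34201454, plus strand) had 14 to 40 counts in a library, or 1.45, 1.44 and 1.39 CPM at 0 µM, 1.32, 1.79 and 1.31 CPM at 2 µM, and 2.44 and 2.52 CPM at 10 µM. The 10 µM libraries were the highest. The fold at 10 against 0 µM was 1.74 (95% interval 1.25 to 2.42), close to that of Tap1, but with a wider error (log2 fold change 0.80 ± 0.216) and an adjusted p of 0.0317 it did not pass. Against 2 µM its log2 fold change was 0.76 ± 0.226 (adjusted p = 0.0322).

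Psmb9 (chr17:34181987-34187764, minus strand) had 13 to 27 counts in a library. It was at 1.66, 1.14 and 0.91 CPM at 0 µM, 1.5, 1.06 and 1.13 CPM at 2 µM, and 1.59 and 1.94 CPM at 10 µM. The 10 µM libraries overlapped the untreated ones. The log2 fold change against 0 µM was 0.61 ± 0.290 (adjusted p = 0.186), with a 95% interval of the fold from 0.983 to 2.37, so a change as large as that of Tap1 could not be detected or set aside at this depth. Psmb9 and Tap1 overlap on opposite strands and share 3.44% and 2.40% of their 75-base stretches, and Psmb8 shares 9.97% of its stretches with Gm20496.

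Nlrc5 encodes the transactivator that drives transcription of class I genes through their promoters. Nlrc5 (chr8:94434356-94527272, plus strand) was at 22.2, 26.2 and 25.6 CPM at 0 µM, 16.1, 18.6 and 19.8 CPM at 2 µM, and 33.1 and 28.8 CPM at 10 µM. The doses did not overlap: all 2 µM libraries were lowest and both 10 µM libraries highest. It was 1.70-fold higher at 10 than at 2 µM (95% interval 1.42 to 2.03; log2 fold change 0.76 ± 0.116, adjusted p = 0.00112). Against 0 µM, the log2 fold change was -0.45 ± 0.106 at 2 µM (adjusted p = 0.0423) and 0.32 ± 0.113 at 10 µM (adjusted p = 0.0854), and neither passed. Without 10 µM replicate 1, the call against 2 µM was lost at a log2 fold change of 0.62 (adjusted p = 0.0171).

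**Figure D3:**
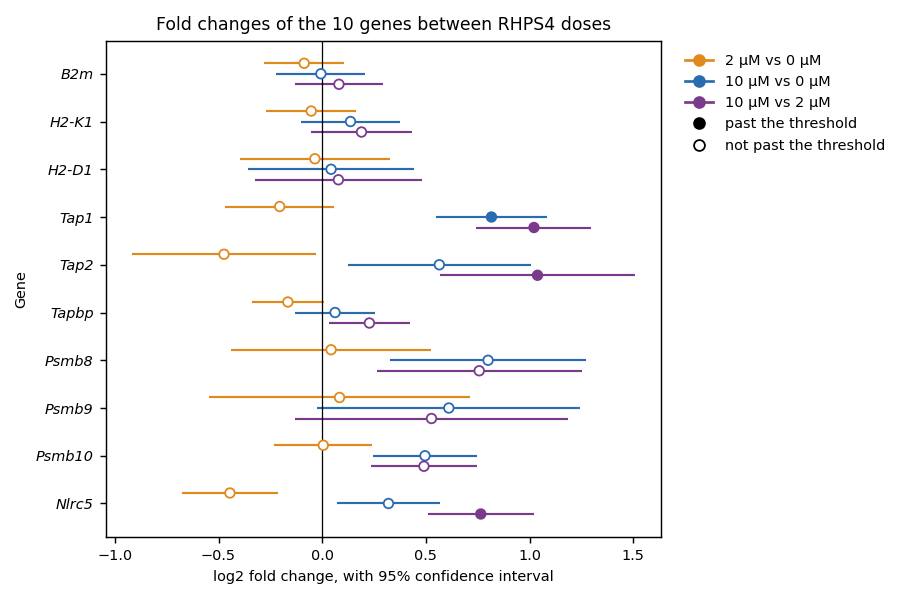
log2 fold change of the 10 genes (horizontal axis; points with 95% confidence intervals as lines) between each pair of doses, from edgeR over all 8 libraries. Filled points passed the threshold: Tap1 at 10 against 0 µM, and Tap1, Tap2 and Nlrc5 at 10 against 2 µM.

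Per kilobase of merged exon, the untreated levels ran in the order B2m (739 CPM per kb), H2-K1 (51.0), Tapbp (28.7), H2-D1 (16.7), Psmb10 (12.6), Tap1 (3.59), Nlrc5 (3.04), Tap2 (1.79), Psmb9 (0.916) and Psmb8 (0.876). In this order, the mean ± SD of Tap1 and Nlrc5 (0.325 and 0.265 SD) overlapped, as did those of Psmb9 and Psmb8 (0.284 and 0.0204 SD). At 10 µM, Tap1 was at 6.38 ± 0.454 and Nlrc5 at 3.81 ± 0.370 CPM per kb, which no longer overlapped. The transporter subunits thus remained far below the heavy chain H2-K1, at 55.8 ± 3.58 CPM per kb at 10 µM.

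Ratios of counts within a library do not depend on scaling between libraries, and set each immunoproteasome subunit against the constitutive subunit it replaces. The log2 ratio of Psmb8 to Psmb5 was -4.14, -4.50 and -4.36 without RHPS4, -4.46, -4.14 and -4.29 with 2 µM, and -3.53 and -3.27 with 10 µM. The log2 ratio of Psmb9 to Psmb6 was -6.80, -7.04 and -7.38 in the 0 µM libraries, and -6.40 and -6.41 in those of 10 µM. That of Psmb10 to Psmb7 was -3.43, -3.23 and -3.09 without RHPS4, against -2.68 and -2.60 with 10 µM. For all 3 pairs, both 10 µM libraries lay above all 0 µM libraries, by 0.94, 0.67 and 0.61 on average. In a two-sided exact permutation test each gave p = 0.2, the smallest that 3 against 2 libraries allow (0.1 for 3 against 3), and p = 0.5 after adjustment over the 10 ratio tests, so this design cannot place them past a threshold. The differences at 2 µM were 0.04, -0.08 and -0.19, with overlapping libraries. Psmb5, Psmb6 and Psmb7 themselves had log2 fold changes of -0.16, -0.12 and -0.13 at 10 µM (adjusted p = 0.428, 0.517 and 0.488).

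The balance within the other complexes gave overlapping doses. The log2 ratio of Tap1 to Tap2 was 0.79 ± 0.336 at 0 µM, 1.16 ± 0.492 at 2 µM and 1.06 ± 0.0197 at 10 µM (exact permutation p = 0.3 and 0.6 against 0 µM). The log2 ratio of B2m to H2-K1 and H2-D1 together was 2.41 ± 0.0877, 2.38 ± 0.154 and 2.31 ± 0.142 (exact permutation p = 0.8 and 0.4).

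Among 69 further genes of the pathway and its regulators, 59 were tested. These lists were drawn up with earlier results of these data known. The shares of all tested genes beside their counts, here and below, are therefore a description and no test of an excess. At 10 µM against 0 µM 8 of the 59 rose (1.95% of all tested genes) and none fell (1.14%), and against 2 µM 11 were higher (3.92%) and none lower (1.59%). At 2 µM against 0 µM none passed by edgeR or by DESeq2, with 17 of the 59 at an unadjusted edgeR p under 0.05.

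The other class I heavy chains, most of them non-classical molecules with a restricted peptide or lipid repertoire, gave 3 of 10 tested genes that rose at 10 µM against 0 µM (1.95% of all tested genes) and 4 that were higher than at 2 µM (3.92%), with list medians of 0.64 and 0.97 on the log2 scale. H2-T23 encodes Qa-1, the ligand of an inhibitory receptor of natural killer cells. It was at 19.0, 13.0 and 14.3 CPM at 0 µM, 11.7, 12.5 and 11.4 CPM at 2 µM, and 24.7 and 29.0 CPM at 10 µM, and rose 1.77-fold (95% interval 1.43 to 2.20; adjusted p = 0.0036). H2-M3, which presents formylated peptides, was at 5.50, 5.65 and 5.60 CPM, then 4.58, 3.67 and 5.29 CPM, and 8.85 and 10.4 CPM, and rose 1.72-fold (1.37 to 2.16; adjusted p = 0.00675). Both genes had every 10 µM library above every other library. Of all tested genes, 22.9% had this against 0 µM and 27.0% against 2 µM.

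Fcgrt, the heavy chain of the neonatal Fc receptor, carries antibodies and albumin and pairs with beta-2-microglobulin but holds no peptide. It was at 18.5, 16.6 and 19.1 CPM at 0 µM, 13.1, 15.6 and 12.5 CPM at 2 µM, and 25.5 and 29.3 CPM at 10 µM, and rose 1.52-fold (1.27 to 1.81; adjusted p = 0.0067), just past the fold threshold. Mr1, which presents vitamin metabolites, was at 17.5, 13.7 and 15.6 CPM, 12.0, 9.78 and 10.6 CPM, and 19.5 and 21.6 CPM. It was higher at 10 than at 2 µM (log2 fold change 0.93 ± 0.129, adjusted p = 0.000645) and had a log2 fold change of 0.41 against 0 µM (adjusted p = 0.0480). The calls of Fcgrt, H2-M3 and H2-T23 against 0 µM were each lost in a fit of the 0 and 10 µM libraries alone, in a fit of all libraries with a replicate block, and without either 10 µM library or 0 µM replicate 2 or 3. Without 2 µM replicate 1 those of Fcgrt and H2-M3 were lost too, and that of Fcgrt also without 2 µM replicate 3, with RLE scaling, with no filter on low counts and with DESeq2, which gave it a log2 fold change of 0.56. Against 2 µM, the calls of Mr1 and H2-M3 were lost without 10 µM replicate 2 (edgeR adjusted p = 0.0105 and 0.0142). Of H2-T23, 5.91% of the 75-base stretches occur in other genes.

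Of the 7 genes of the loading complex and peptide trimming, none rose or fell at 10 µM against 0 µM by edgeR or DESeq2, and 1 had an unadjusted p under 0.05. Tapbpl, the tapasin-related peptide editor, was 2.00-fold higher at 10 than at 2 µM (log2 fold change 1.00 ± 0.219, adjusted p = 0.00798), with 5.07 ± 0.878 CPM at 0 µM, 3.87 ± 1.13 CPM at 2 µM and 7.96 ± 0.642 CPM at 10 µM. Its call was lost without either 10 µM library, 0 µM replicate 2, or 2 µM replicate 1 or 2. None of the 11 constitutive proteasome, assembly and activator genes passed by edgeR or DESeq2 in any comparison, with 1, 3 and 6 of them at an unadjusted p under 0.05 at 2 against 0 µM, 10 against 0 µM and 10 against 2 µM. Their log2 fold changes went both ways. At 10 against 0 µM they ran from -0.21 to 0.41, with 4 above 0 and 7 below. At 10 against 2 µM they ran from -0.45 to 0.42, with 2 above 0 (Psme1 and Psme2) and 9 below. In the latter comparison, 4 of the 11 had an edgeR adjusted p under 0.05. No share of all tested genes was taken at that limit without a minimum fold. Of the 8 genes of the class II pathway, which serves professional antigen presenting cells, 4 had enough counts for testing and none passed by either tool, with 1 at an unadjusted p under 0.05 in each comparison.

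Of 27 tested regulators, 5 rose at 10 µM against 0 µM (1.95% of all tested genes), among them Stat2, Irf9, Irf7 and Usp18, and none fell. The list median was -0.01 on the log2 scale. Stat2 and Irf9 act in transcription downstream of the type I interferon receptor. Stat2 was at 37.6, 37.9 and 41.0 CPM at 0 µM, 25.9, 25.6 and 30.1 CPM at 2 µM, and 58.9 and 72.0 CPM at 10 µM, a 1.68-fold rise (95% interval 1.43 to 1.97; adjusted p = 0.0011) that was lost without 0 µM replicate 2 or 10 µM replicate 2. Irf9 was at 38.7, 31.9 and 33.4 CPM, 29.2, 28.2 and 26.5 CPM, and 60.1 and 65.7 CPM, a 1.82-fold rise (1.57 to 2.12; adjusted p = 0.000234). Both had every 2 µM library below and every 10 µM library above the 0 µM libraries. Taken singly, 12.9% of all tested genes had the former and 22.9% the latter, and 12 of the 27 regulators had the former.

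Irf7, a factor that amplifies interferon transcription, was at 8.20, 7.63 and 7.34 CPM at 0 µM, 5.82, 4.65 and 6.66 CPM at 2 µM, and 22.3 and 20.8 CPM at 10 µM, a 2.81-fold rise (95% interval 2.31 to 3.42; adjusted p = 3.37e-05). Usp18, an interferon-induced protease that removes ISG15 and dampens receptor signalling, was at 14.5, 9.76 and 11.7 CPM, 8.81, 7.99 and 9.33 CPM, and 31.0 and 39.6 CPM, a 3.00-fold rise (2.38 to 3.78; adjusted p = 6.85e-05). Both rose further than Stat2 and Irf9, by the fitted fold. Tyk2, a kinase of the interferon receptor, was higher at 10 than at 2 µM (log2 fold change 0.61 ± 0.127, adjusted p = 0.00579) and had a log2 fold change of 0.25 against 0 µM (adjusted p = 0.202). Its call against 2 µM was lost with DESeq2, with no filter on low counts, with a replicate block (adjusted p = 0.0111) and without any 1 of 6 libraries (0 µM replicate 1 or 2, 2 µM replicate 1 or 2, and either of 10 µM).

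Irf1 and Rfx5, which act directly on class I promoters, gave smaller values. Irf1 was at 68.1 ± 5.86 CPM at 0 µM, 60.1 ± 1.26 CPM at 2 µM and 79.8 ± 6.76 CPM at 10 µM, with a log2 fold change of 0.23 ± 0.0895 at 10 against 0 µM (adjusted p = 0.109). Rfx5, of the complex with which NLRC5 binds, was at 35.0 ± 2.04, 27.8 ± 0.698 and 38.2 ± 3.01 CPM, with a log2 fold change of 0.13 ± 0.0900 (adjusted p = 0.362). Between 10 and 2 µM, the log2 fold changes were 0.41 for Irf1 (adjusted p = 0.00805) and 0.45 for Rfx5 (adjusted p = 0.00515), under the minimum fold.

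**Figure D4:**
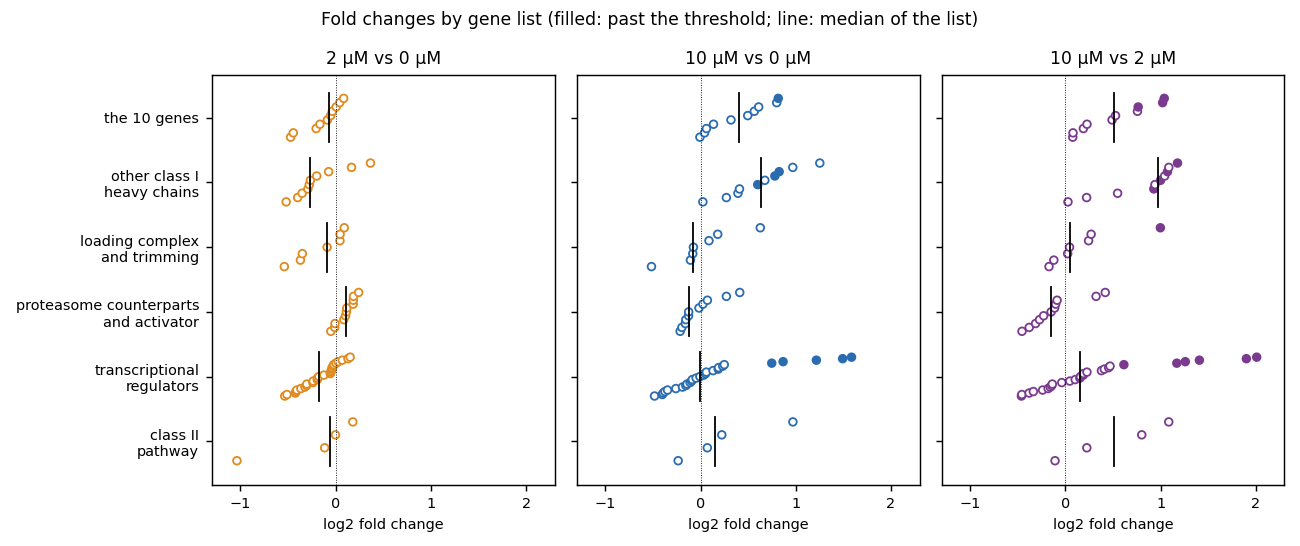
log2 fold change (horizontal axes) of the 10 genes and of the further lists of the pathway in each pair of doses, with a point for each tested gene, spread vertically by rank within its list, and a line at the list median. Filled points passed the threshold: none at 2 against 0 µM, 1 of the 10 genes and 8 others at 10 against 0 µM, and 3 of the 10 and 11 others at 10 against 2 µM.

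The genes whose pattern over the 8 libraries was most like that of Tap1 were found by the mean absolute difference in log2 CPM centred on each gene's mean, among 12311 genes with a mean of at least 1 CPM over the 8 libraries. They were Idua, a lysosomal enzyme (0.0783), Herc6 (0.0820), Slc15a2, a transporter of small peptides (0.0901), Actr3b (0.0933) and Eif4ebp1 (0.0963). Actr3b was under that minimum at 0 µM (0.976 ± 0.0569 CPM) and 2 µM (0.749 ± 0.119 CPM) and over it at 10 µM (1.5 ± 0.314 CPM) alone. Herc6, an interferon-induced ubiquitin ligase, was at 17.0 ± 1.28 CPM at 0 µM, 14.7 ± 1.16 CPM at 2 µM and 30.3 ± 2.43 CPM at 10 µM. Eif4ebp1, a repressor of translation, was at 95.8 ± 3.95, 89.9 ± 7.16 and 162 ± 0.959 CPM. Among the 10 genes themselves the closest pairs were B2m and H2-K1 (0.0774), Tapbp and H2-K1 (0.117) and Psmb8 and Psmb10 (0.123), and the nearest to Tap1 was Psmb8 (0.177). Tap2 lay farthest from H2-D1 (0.485). These values are descriptions over 8 shared libraries with no test.

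Levels of some marker genes of cell types differed between doses. Pdgfrb, a receptor of fibroblasts, fell at 10 µM against 0 µM (log2 fold change -0.60 ± 0.0684, adjusted p = 0.000248), the only one of the 11 fibroblast markers to pass. Cd14, a leukocyte marker, also fell (log2 fold change -0.95 ± 0.130, adjusted p = 0.000868), from 15.2 ± 1.45 to 7.81 ± 0.250 CPM. Other markers went the other way without passing: Adgre1, a macrophage marker, was at 0.576 ± 0.327 CPM at 0 µM and 1.21 ± 0.281 CPM at 10 µM (log2 fold change 0.98, adjusted p = 0.128), with both 10 µM libraries above all untreated ones. Lyz2, too low to be tested, was at 0.064 ± 0.035 CPM at 0 µM and 0.16 ± 0.028 CPM at 10 µM. The part of the mitochondrial share and of the marker levels in these results was not tested beyond the values given.

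Scaling by total counts in place of TMM moved the median log2 fold change of all genes to 0.23 at 10 against 0 µM, and the calls from 279 higher and 163 lower to 846 higher and 68 lower. At 10 against 2 µM the calls went from 561 higher and 227 lower to 923 and 84, and at 2 against 0 µM from 17 higher and 54 lower to 26 and 40. Under it Psmb10 alone of the 10 genes was added at 10 against 2 µM (log2 fold change 0.63). At 10 against 0 µM, Psmb8 (log2 fold change 1.01) and Psmb10 (0.71) also passed. Relative to that median, Tap1 was at 0.80, Psmb8 at 0.78, Tap2 at 0.55, Psmb10 at 0.48 and B2m at -0.02.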

How the data were processed

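RNA-seq gave 8 MEF libraries at 3 RHPS4 doses. Per the labels and the study's methods, the authors trimmed paired reads of 75 bases from a stranded, ribosomal RNA depleted library (FastQC, Trim Galore, cutadapt), aligned them to mm10 with STAR 2.5.2a and used featureCounts to assign fragments that mapped to 1 place to genes. The deposited values are these raw counts. The annotation and strand setting of the counting are not given in the sources used here, so it is not known whether reads of a gene and of its antisense partner were kept apart.

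Counts of 24460 genes were filtered with filterByExpr, scaled by TMM and fitted in 1 model over all 8 libraries, with dose as the only term, using edgeR 4.0.16 in R 4.3.3. SE is the log2 fold change over the root of the F statistic. P-values were adjusted over 14296 genes. The study used DESeq2, which is an alternative here (1.42.0). Depth was 10455965 to 26688121 counts, and 3 counts in a library correspond to 0.112 to 0.287 CPM before TMM, a limit that covers counting error only. All replicate pairs differed by more than sampling noise and were kept as separate libraries. Ratios were log2 of counts with 0.5 added. Promoter windows came from RefSeq and positions and transcripts from GENCODE. Fits were tested on simulated data.

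The named genes are all 10 genes, every listed gene past the threshold in any comparison, Psmb5, Psmb6, Psmb7, Irf1 and Rfx5, and the 5 genes most like Tap1. 1 gene that the rule names is not reported here. The genes, lists and motifs were chosen with earlier results of these data known.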

Additional observations from a re-analysis of the deposited data

How the results depend on the processing

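Leaving out single libraries, other scalings, filters, tools, thresholds and a replicate block were tried for the fold changes and counts of calls. For the ratios, single libraries were left out, 5 was added to each count, and a replicate block was used. At 10 against 0 µM the number of the 10 genes called was 1, 3 by total counts, 2 at an adjusted p under 0.05, and 0 to 1 when a library was left out (0 without 10 µM replicate 2). The pathway lists gave 8, 11 by total counts (H2-T24, Mr1 and Psme2 added) and 9 with at least 10 counts in every library. They gave 5 with only the 2 groups in the fit, 5 with a replicate block and 4 to 8 when a library was left out. At 10 against 2 µM the 10 genes gave 3, and 1 to 3 when a library was left out (1 without 10 µM replicate 1), and the lists gave 11, 17 with no minimum fold and 7 to 11 when a library was left out (7 without 10 µM replicate 2). At 2 against 0 µM the lists gave 0 and 1 (Stat3) with no minimum fold. The calls of Irf7, Irf9 and Usp18 held in every alternative run, at 10 µM against both other doses.

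Log2 fold changes near 0 turned in sign. By total counts, H2-K1 and H2-D1 at 2 against 0 µM were at 0.0301 and 0.0444 and B2m at 10 against 0 µM at 0.21, and with at least 10 counts in every library B2m was at 0.000549. With the replicate block H2-D1 was at -0.0480 at 10 against 0 µM and -0.0017 at 10 against 2 µM. When a library was left out, the log2 ratios at 2 against 0 µM ran from -0.0497 to 0.13 for Psmb8 to Psmb5, -0.23 to 0.0562 for Psmb9 to Psmb6 and -0.11 to 0.0404 for B2m to heavy chains. The log2 fold changes at 2 against 0 µM then ran from -0.14 to 0.0099 (B2m), -0.12 to 0.0391 (H2-K1), -0.0957 to 0.0676 (H2-D1), -0.11 to 0.14 (Psmb8), -0.13 to 0.26 (Psmb9) and -0.0733 to 0.0774 (Psmb10). At 10 against 0 µM they ran from -0.0869 to 0.0594 (B2m), -0.42 to 0.34 (H2-D1) and -0.0620 to 0.12 (Tapbp), and at 10 against 2 µM from -0.0099 to 0.13 (B2m) and -0.39 to 0.36 (H2-D1). The cause was not tested.

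The labels do not say that replicate numbers pair libraries. Deviations of same-numbered libraries at 0 and 2 µM correlated at 0.199, 0.0845 and 0.161, 1 of them under the 0.1 required here, and each library correlated best with its own number, a hint of pairing from the data. Those of 10 µM correlated at -0.145 and -0.105 with 0 µM, equal and opposite to the crossed values since 10 µM has 2 libraries. The fit without the block was kept. Over all genes, calls at 2 against 0 µM were 71, 109 by DESeq2 and 6 to 144 when a library was left out. At 10 against 0 µM they were 442, 914 by total counts and 235 to 633, and at 10 against 2 µM 788 and 444 to 884. Psmb8 and Psmb9, at 13 to 40 counts, are limited by depth.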

Other observations

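Of the interferon genes, Ifnb1 and Ifng were looked at and had few or no counts. Ifnb1, the type I interferon made by fibroblasts, had 0 or 1 count in each of the 8 libraries and 0 in both 10 µM libraries, which allows a level of up to 0.199 and 0.237 CPM there. Ifng, the type II interferon of lymphocytes, had 0 to 7 counts, with 0.159 ± 0.143 CPM at 0 µM, 0.166 ± 0.220 CPM at 2 µM and 0.261 ± 0.0633 CPM at 10 µM. Both were below the filter and were not tested, and they are named here after their values were seen. The class II chain genes H2-Aa, H2-Ab1 and H2-Eb1 were also below the filter, at 0 to 11 counts in a library, and Ciita, the class II counterpart of Nlrc5, was at 0.602 ± 0.149, 0.658 ± 0.107 and 0.620 ± 0.445 CPM at 0, 2 and 10 µM (log2 fold change at 10 against 0 µM 0.07, adjusted p = 0.940). Of the other tested class II genes, H2-DMb1 had log2 fold changes of 0.97 at 10 against 0 µM and 1.09 at 10 against 2 µM. Its edgeR adjusted p was under 0.05 in the latter comparison alone, and it was called in neither. Cd74 had a log2 fold change of -1.04 at 2 against 0 µM and was not called. These genes were likewise chosen after their values were seen.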
